A study of Mus musculus with 48 samples.

Results

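Galnt9, Idua, Tmed5, Gcn1l1, Rplp0, Gm8730 and Gm9625 are 7 of the 55450 genes counted in cells of mice that lack HMGN1 and HMGN2, a pair of nucleosome-binding proteins, and in cells of wild type mice. They were listed by symbol for a shift of 1 direction between double knockout (DKO) and wild type (WT) cells over the days, or for their likeness to Rplp0. The DKO against WT values below are what they were chosen by and are given as a description with no test. Only 5 of the 7 lie on mouse chromosome 5 in the 15 Mb before 120 Mb (mm10): Tmed5 (108106366 to 108132620, minus strand), Idua (108660331 to 108684557, plus strand), Galnt9 (110544355 to 110621380, plus strand), Rplp0 (115559467 to 115563727, plus strand) and Gcn1l1 (115565254 to 115622654, plus strand), which starts 1526 bases after the end of Rplp0. Gm8730 (chromosome 8, 102864845 to 102865798, minus strand) and Gm9625 (chromosome 13, 67810246 to 67811200, plus strand) are annotated as processed pseudogenes and resemble Rplp0 in sequence. The mean shift was of 1 direction in all 8 comparisons for each of the 7 genes, but the Gcn1l1 libraries of the genotypes overlapped in preadipocytes on days 0 and 3, and its shift cannot be called constant.

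RNA, labelled as polyadenylated although the methods name a kit for total RNA, was sequenced from 48 libraries of mouse cells, 3 for each genotype, cell type and day. The study lists its WT mice as C57BL/6 and its DKO mice as a B6.Cg strain, and how far the backgrounds match is not stated. White preadipocytes from the inguinal fat of 8- to 12-week-old mice were taken at days 0, 3, 6 and 9 of adipocyte differentiation, and mouse embryonic fibroblasts (MEFs), a mixed culture from whole embryos, at days 0, 4, 8 and 12. Cells of both genotypes received the same media, first insulin, dexamethasone, IBMX, T3 and rosiglitazone (4 days for preadipocytes, 8 days for MEFs), then insulin and T3, and day 0 cells were undifferentiated. DKO cells are Hmgn1-/- Hmgn2-/- in every tissue, so their mice also developed without both proteins, and the labels do not say whether the 3 libraries of a group came from separate animals, so that p-values measure the spread between these libraries. Values are reads per gene as estimated by RSEM, here given as CPM, the count scaled to the library's total as adjusted by TMM normalisation.

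Rplp0 encodes the acidic protein P0 of the large ribosomal subunit, the base of the ribosomal stalk that recruits elongation factors, and is widely used as a reference gene. Processed pseudogenes are copies of a messenger RNA that were pasted back into the genome without introns; where a copy stays nearly identical to its parent, short reads cannot always be assigned to one of them. Galnt9 encodes a polypeptide N-acetylgalactosaminyltransferase, an enzyme of the family that starts mucin-type O-glycosylation in the Golgi and is best known from brain. Idua encodes alpha-L-iduronidase, the lysosomal enzyme that removes iduronic acid from dermatan and heparan sulfate and is deficient in mucopolysaccharidosis type I. Tmed5 encodes a p24 family cargo receptor of the early secretory pathway, and Gcn1l1 (now Gcn1) the ribosome-binding activator of the kinase GCN2 that starts the integrated stress response.

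The sequences are shown because reads of Rplp0 and of its copies can be told apart only where these differ. Against the 954 coding bases of Rplp0, Gm8730 has 12 substitutions and no gap (98.7% identical), and Gm9625 has 24 substitutions and 1 gap (97.5%). Of all windows of 50 coding bases, the read length, 39.4% occur unchanged in Gm8730 and 31.2% in Gm9625. Over the 1358 bases of the whole Rplp0 transcript these shares are 27.3% and 21.5%. Reads were sequenced in pairs, so a fragment can cover more bases than 1 window. The 12 substitutions of Gm8730, with positions counted from the first base of the Rplp0 start codon and the Rplp0 base first, are T72C, G138C, T192C, T300C, A390G, A393G, A447T, G502A, G558C, T603G, A696G and A784G. Of these, 10 stand at the third base of a codon and 8 are shared with Gm9625. The first stretch shown, coding bases 61 to 150, lies in exon 3 of Rplp0 (mm10, chr5:115560747-115560836), in Gm8730 at chr8:102865649-102865738 and in Gm9625 at chr13:67810306-67810395. Capitals mark the bases at which the copies differ, and sequences are from GENCODE M21, 5′ to 3′.
Rplp0: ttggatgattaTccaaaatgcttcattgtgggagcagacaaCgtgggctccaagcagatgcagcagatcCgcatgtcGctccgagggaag
Gm8730: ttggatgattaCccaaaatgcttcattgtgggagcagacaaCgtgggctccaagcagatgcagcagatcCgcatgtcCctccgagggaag
Gm9625: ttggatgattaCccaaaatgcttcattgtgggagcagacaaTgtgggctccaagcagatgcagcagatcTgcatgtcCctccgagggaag
The second stretch, coding bases 371 to 460, lies in exon 4 of Rplp0 (chr5:115561151-115561240), at chr8:102865339-102865428 in Gm8730 and at chr13:67810616-67810705 in Gm9625, and holds A447T, which Gm8730 does not share with Gm9625.
Rplp0: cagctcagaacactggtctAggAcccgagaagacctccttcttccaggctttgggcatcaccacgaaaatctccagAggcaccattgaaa
Gm8730: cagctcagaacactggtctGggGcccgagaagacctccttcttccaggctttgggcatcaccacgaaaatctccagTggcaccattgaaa
Gm9625: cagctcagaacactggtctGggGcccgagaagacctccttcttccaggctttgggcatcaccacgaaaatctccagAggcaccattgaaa

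The libraries summed to between 18962483 and 36006696 estimated reads. Hmgn2 was at 0 to 0.329 CPM in the 24 DKO libraries and at 32.4 to 198 CPM in the 24 WT libraries, whereas Hmgn1 kept 69.7 to 114 CPM in DKO libraries, against 77.0 to 218 CPM in WT libraries. Hmgn2 was called lower in 8 and Hmgn1 in 2 of the 8 comparisons by edgeR. DESeq2 called Hmgn1 in 4, and its unadjusted edgeR p was under 0.05 in 7. The Hmgn1 value covers the whole gene and so does not check the deleted exons. The sum of 6 adipocyte markers was 155 to 421 CPM in WT preadipocytes on day 0 and 22793 to 23878 CPM on day 9. All DKO preadipocyte libraries were above WT on day 3 (3124 to 4532 against 640 to 2534 CPM). They were also above on day 6 (24947 to 30297 against 19043 to 22688 CPM) and day 9 (28869 to 35873 CPM). In MEFs all DKO libraries were above WT on day 0 (1519.9 to 2152 against 931 to 1122 CPM). The same held on day 12 of MEFs (22632 to 23607 against 14979.5 to 15347 CPM). On day 0 of preadipocytes and days 4 and 8 of MEFs the genotypes overlapped. The 5 macrophage or leukocyte markers, led by Lyz2, summed to 1756 to 3633 CPM in DKO and 4678 to 7962 CPM in WT preadipocytes on day 6 and to 2350.3 to 2714 and 3773 to 3820.3 CPM in MEFs on day 12.  Fewer cells of a type and less RNA per cell cannot be told apart in bulk RNA, and the part of these cell mixtures in the differences below was not tested.

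Gm8730 showed the largest difference of the 7 genes in 7 of the 8 comparisons, with Galnt9 ahead on day 3 of preadipocytes. On day 0 of preadipocytes and day 8 of MEFs the gap between both genes was smaller than the standard error of the Galnt9 value. In WT preadipocytes it was at 478, 443 and 418 CPM in the 3 libraries of day 0 and in DKO preadipocytes at 27.7, 24.5 and 21.9 CPM, a log2 fold change (DKO over WT) of -4.17 ± 0.12 (SE), that is 18.0-fold lower. On day 3 the WT libraries were at 699.5, 737 and 718 CPM and the DKO libraries at 43.3, 42.1 and 43.2 CPM (-4.06 ± 0.0808). On day 6 they were at 416, 482 and 441 and 10.9, 9.95 and 8.39 CPM (-5.55 ± 0.13, 46.9-fold lower). The groups lay more than 10 times apart on every day, and within DKO preadipocytes the libraries of days 0 and 3 were all above those of days 6 and 9 (8.02, 8.14 and 7.46 CPM on day 9). In MEFs, WT libraries ranged from 324 to 561 CPM (median 421) and DKO libraries from 5.75 to 15.1 CPM (median 10.8) over the 12 libraries of each genotype, with log2 fold changes between -5.81 on day 12 and -5.17 on day 4. Every DKO library of MEFs was below every DKO preadipocyte library of days 0 and 3, in CPM scaled for each cell type apart.

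Gm9625 followed the same order at a lower level. On day 0 the WT preadipocyte libraries were at 108, 98.6 and 104 CPM and the DKO libraries at 16.1, 16.9 and 16.3 CPM (-2.65 ± 0.0690), and on day 9 at 80.9, 74.9 and 75.9 and 5.46, 4.49 and 5.24 CPM (-3.96 ± 0.0948). The difference was smaller on days 0 and 3 than on days 6 and 9 in preadipocytes (-2.65 and -2.62 against -3.93 and -3.96), and in MEFs it stayed between -3.95 and -3.71. The widest spread within a DKO group was on day 12 of MEFs, with 6.15, 6.96 and 2.98 CPM.

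Rplp0 itself was higher in DKO cells in every comparison, and its 24 DKO libraries were above the WT libraries of their own day without exception. In preadipocytes the WT libraries were at 848, 767 and 767 CPM on day 0 and the DKO libraries at 1327, 1340.1 and 1239.5 CPM (0.71 ± 0.0820, 1.64-fold). On day 3 both genotypes were at their highest, 1236, 1277 and 1255 against 2306, 2346 and 2237 CPM (0.88 ± 0.0879). The smallest difference was on day 12 of MEFs, 764, 737 and 723 against 945, 925 and 947 CPM (0.32 ± 0.0407), and the other MEF days gave 0.63, 0.81 and 0.77.

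The reads given to the 3 loci together differed less between the genotypes than those given to each locus alone. The sum of Rplp0, Gm8730 and Gm9625 was 1434, 1309 and 1289 CPM in the WT and 1371, 1382 and 1278 CPM in the DKO preadipocyte libraries of day 0, and these overlapped (log2 fold change -0.0011 ± 0.0826). In MEFs of day 0 it was 1224, 1225 and 1295 and 1319, 1261 and 1126 CPM (-0.016 ± 0.11). Over the 8 comparisons the sum differed by -0.30 to 0.19, 3 times upward and 5 times downward, where Rplp0 alone differed by 0.32 to 0.88. The DKO libraries of the sum lay below WT on day 9 of preadipocytes (-0.25) and on day 12 of MEFs (-0.30), comparisons in which Rplp0 alone lay above. RSEM divides a read that matches several loci between them, so the division of reads among these loci is uncertain.

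The share of the summed reads that each locus received lay in ranges that did not overlap between the genotypes. In WT preadipocytes Rplp0 received 58.1% to 61.7%, Gm8730 31.3% to 33.9% and Gm9625 7.02% to 8.34% over the 12 libraries, and in WT MEFs 62.6% to 65.2%, 27.6% to 30.7% and 6.29% to 7.35%. In DKO cells Rplp0 received 96.8% to 98.8% in preadipocytes and 98.6% to 99.1% in MEFs. The Gm8730 share in DKO preadipocytes was 1.84% ± 0.163 (SD, n = 3) on day 0 and 1.81% ± 0.0667 on day 3, and 0.770% ± 0.0749 and 0.848% ± 0.0362 on days 6 and 9. In DKO MEFs it was 0.678% ± 0.0247 on day 0 and 0.643% ± 0.0491 on day 12. The early DKO preadipocyte libraries thus held a larger share of both copies than every other DKO library, although they remained far below all WT libraries. WT preadipocytes and WT MEFs also differed, with all 12 preadipocyte libraries above all 12 MEF libraries for Gm8730.

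**Figure D1:**
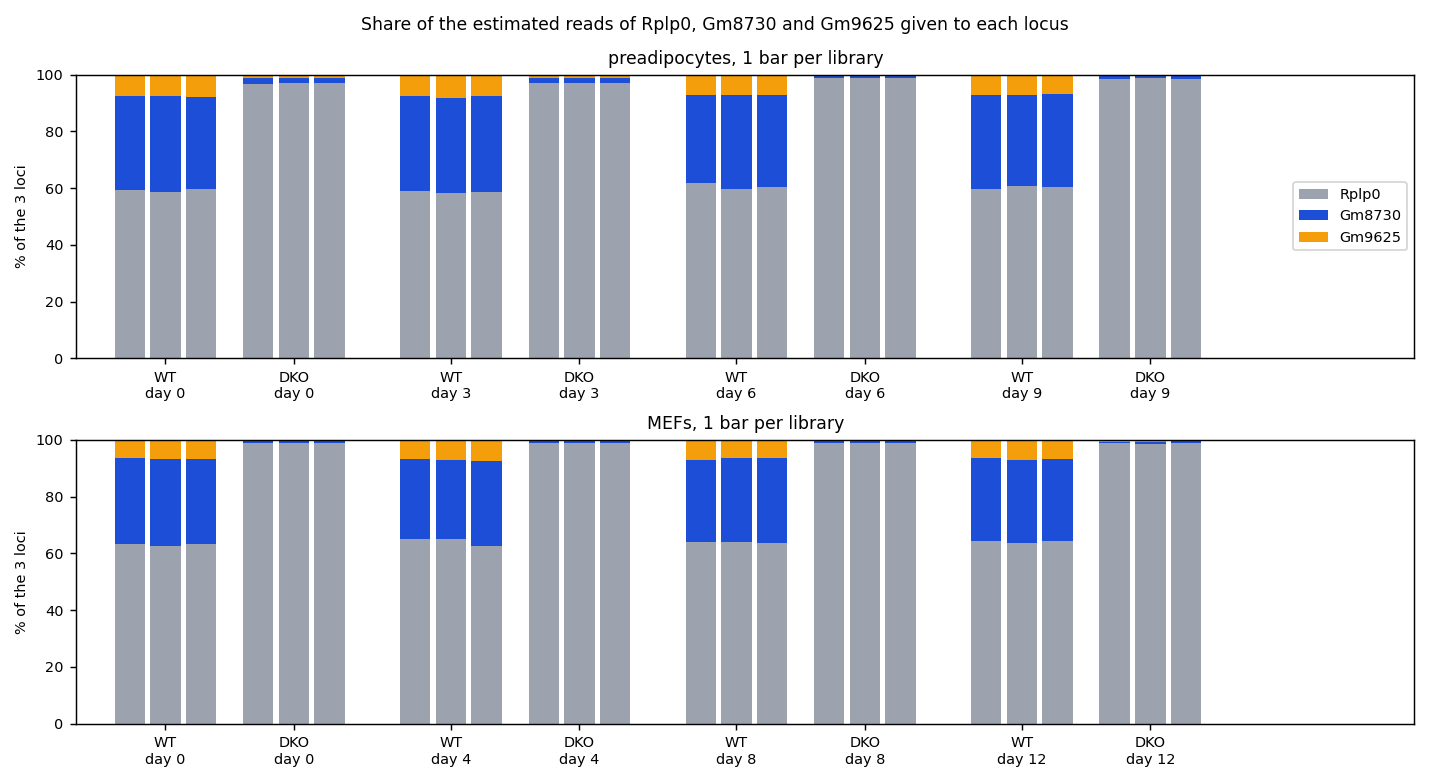
Stacked bars give, for each of the 48 libraries, the percentage of the estimated reads of Rplp0, Gm8730 and Gm9625 together that each locus received, by day and genotype. Gm8730 (blue) takes 27.6% to 33.9% in WT libraries and 0.601% to 2.02% in DKO libraries, and Rplp0 (grey) at least 96.8% in the latter.

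Besides Gm8730 and Gm9625, 7 other annotated loci matched the Rplp0 transcript with at least 80% identity over at least 0.5 of its length. Gm14165 (chromosome 2, 97.2% identical) was lower in DKO libraries in all 8 comparisons (log2 fold changes -2.31 to -1.26), and passed the edgeR test (adjusted p under 0.05 and at least 1.5-fold) in 6 of them. Gm6278 (chromosome 16, 92.8%) was also lower in all 8 (-1.83 to -0.65) and passed in 3. Rplp0-ps1 (chromosome 3, 94.1%) passed in none of 8 with edgeR or DESeq2 (1 with an unadjusted p under 0.05), with log2 fold changes from -1.07 to 0.55. Gm5948 had 0 reads in all 24 DKO libraries and up to 17 in a WT library, and Gm5340 had at most 2 in DKO and up to 48 in WT libraries, passing in 1 of the 2 comparisons in which it was tested. Gm5779 had at most 2 reads in any library, and Gucd1, whose annotated transcript runs opposite to the match, passed in 1 comparison, upward. Gm14165 and Rplp0-ps1 hold 11.9% and 11.2% of the windows of 50 coding bases of Rplp0 unchanged, so their reads can be shared with it, and this was not measured for the other 5 loci.

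Galnt9 was the member of chromosome 5 with the widest gap between genotypes. WT preadipocytes held 2.54, 7.06 and 6.65 CPM on day 0, 28.0, 12.7 and 10.6 CPM on day 3, 2.07, 4.39 and 2.18 CPM on day 6 and 3.97, 3.74 and 4.45 CPM on day 9. DKO preadipocytes held 0.0270, 0.685 and 0.222 CPM, 0.988, 0.498 and 0.434 CPM, 0.0457, 0.220 and 0.0440 CPM and 0.144, 0.133 and 0.173 CPM on the same days. No DKO library reached 1 CPM and no WT library fell below 1.36 CPM, in either cell type. The log2 fold changes were -4.13 ± 0.88, -4.70 ± 0.54, -4.86 ± 0.58 and -4.73 ± 0.25 in preadipocytes. In MEFs, WT libraries ranged from 1.36 to 9.31 CPM (median 3.03) and DKO libraries from 0 to 0.899 CPM (median 0.254), and the log2 fold changes were -1.96 ± 0.36, -3.60 ± 0.82, -5.08 ± 0.89 and -3.72 ± 0.34 on days 0, 4, 8 and 12. DKO libraries held 0 to 30 reads of Galnt9, so their level is known only roughly, and single libraries moved it. The log2 fold change of day 0 of preadipocytes was -5.60 without DKO replicate 2 and -3.50 without DKO replicate 1, that of day 4 of MEFs -4.79 without DKO replicate 3 and -2.81 without WT replicate 1, and that of day 8 of MEFs -7.58 without DKO replicate 2 and -4.58 without DKO replicate 1. The smaller shift on day 0 of MEFs came with the lowest WT level (1.57 ± 0.322 CPM, mean ± SD, n = 3).

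Idua was higher in DKO cells in all 8 comparisons. Its WT preadipocyte libraries were at 14.0, 13.4 and 12.6 CPM on day 0 and its DKO libraries at 28.5, 27.1 and 26.8 CPM (1.04 ± 0.0819), and on day 9 at 11.1, 11.7 and 12.98 and 18.3, 17.9 and 17.2 CPM (0.54 ± 0.0918). The libraries of a group lay close together in preadipocytes and on day 12 of MEFs (17.8, 18.4 and 18.0 against 33.0, 32.1 and 31.3 CPM, 0.81 ± 0.0682). They spread widely on the other MEF days, with 44.7, 95.7 and 42.8 CPM in DKO libraries of day 0, 16.1, 29.2 and 31.8 CPM in WT libraries of day 4 and 10.997, 24.04 and 11.7 against 24.2, 33.8 and 54.0 CPM on day 8. The adipocyte marker sum ran from 1519.9 to 2152 CPM in DKO libraries of day 0, from 1896 to 5768 CPM in WT libraries of day 4 and from 3769 to 9031 CPM in WT and 4295 to 15082 CPM in DKO libraries of day 8, and its part in the Idua values was not tested. Idua overlaps Dgkq and Slc26a1 on the other strand. Dgkq, a diacylglycerol kinase gene, passed the edgeR test in none of 8 comparisons (2 with an unadjusted p under 0.05, none with DESeq2), with log2 fold changes from 0.024 to 0.42, and Slc26a1 was too low to be tested.

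Tmed5 was also higher in DKO cells throughout, least on day 0 of preadipocytes. There the WT libraries were at 66.4, 67.1 and 53.1 CPM and the DKO libraries at 76.1, 68.3 and 70.1 CPM (0.20 ± 0.10), so that the groups nearly touched. On day 9 the libraries were at 128, 132 and 137 and 305, 289 and 342 CPM (1.202 ± 0.0807, 2.30-fold), and on day 12 of MEFs at 108, 105.2 and 114 and 230.4, 276 and 252 CPM (1.19 ± 0.0596). The preadipocyte difference was 0.20, 0.72, 0.86 and 1.202 on days 0, 3, 6 and 9, and in MEFs 0.81, 0.90, 0.64 and 1.19 on days 0, 4, 8 and 12. Mtf2, a Polycomb-associated gene that overlaps Tmed5 on the other strand, passed the edgeR test in none of 8 comparisons (1 with an unadjusted p under 0.05, none with DESeq2), and its log2 fold changes ran from -0.27 to 0.047.

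Gcn1l1, the neighbour of Rplp0, had a lower mean in DKO cells in all 8 comparisons, but its libraries did not separate the genotypes on every day. In preadipocytes the libraries overlapped on day 0 (112, 127 and 114 CPM in WT, 118, 103 and 109 CPM in DKO, -0.100 ± 0.0806) and on day 3 (121, 126 and 115 and 123, 113 and 118 CPM, -0.022 ± 0.0718). On day 3 the sign turned, the highest of the 6 values that leave out 1 library being 0.013, and was above 0 without WT replicate 2 and without DKO replicate 2. On days 6 and 9 the DKO libraries lay below WT (-0.25 ± 0.0705 and -0.34 ± 0.0619), and 18.3% and 12.5% of all tested genes did the same. In MEFs they lay below on every day, with 169.6, 184 and 188 against 119, 101 and 94.9 CPM on day 0 (-0.78 ± 0.11) and 144, 143 and 143 against 82.9, 99.7 and 92.7 CPM on day 12 (-0.67 ± 0.0550). The share of all tested genes with DKO below WT in MEFs was 9.76% on day 0, 5.96% on day 4, 7.14% on day 8 and 20.5% on day 12. WT MEFs held more Gcn1l1 than DKO MEFs. Their values, 138 to 188 CPM (median 156), also lay above those of preadipocytes of either genotype, 87.6 to 127 CPM (median 109) in WT. As the cell types were scaled apart, the latter comparison is only rough and was not tested.

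**Figure D2:**
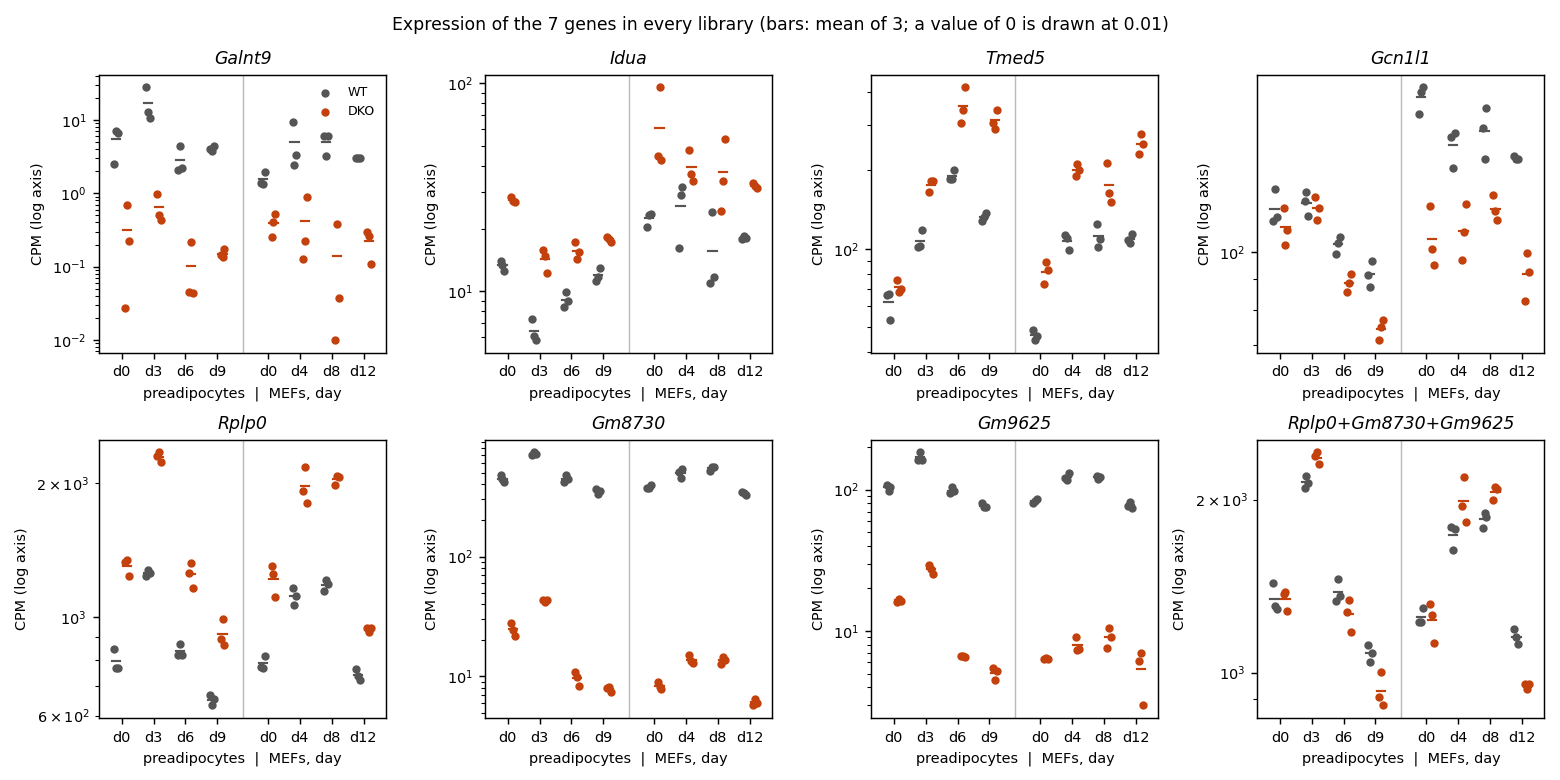
Points give the CPM (log axis) of each gene, and of the sum of Rplp0, Gm8730 and Gm9625, in every library by cell type and day, with WT in grey, DKO in orange and bars at the mean of 3 libraries. Galnt9, Gm8730 and Gm9625 lie lower in DKO libraries on every day, Idua, Tmed5 and Rplp0 higher, while Gcn1l1 overlaps on days 0 and 3 of preadipocytes.

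**Figure D3:**
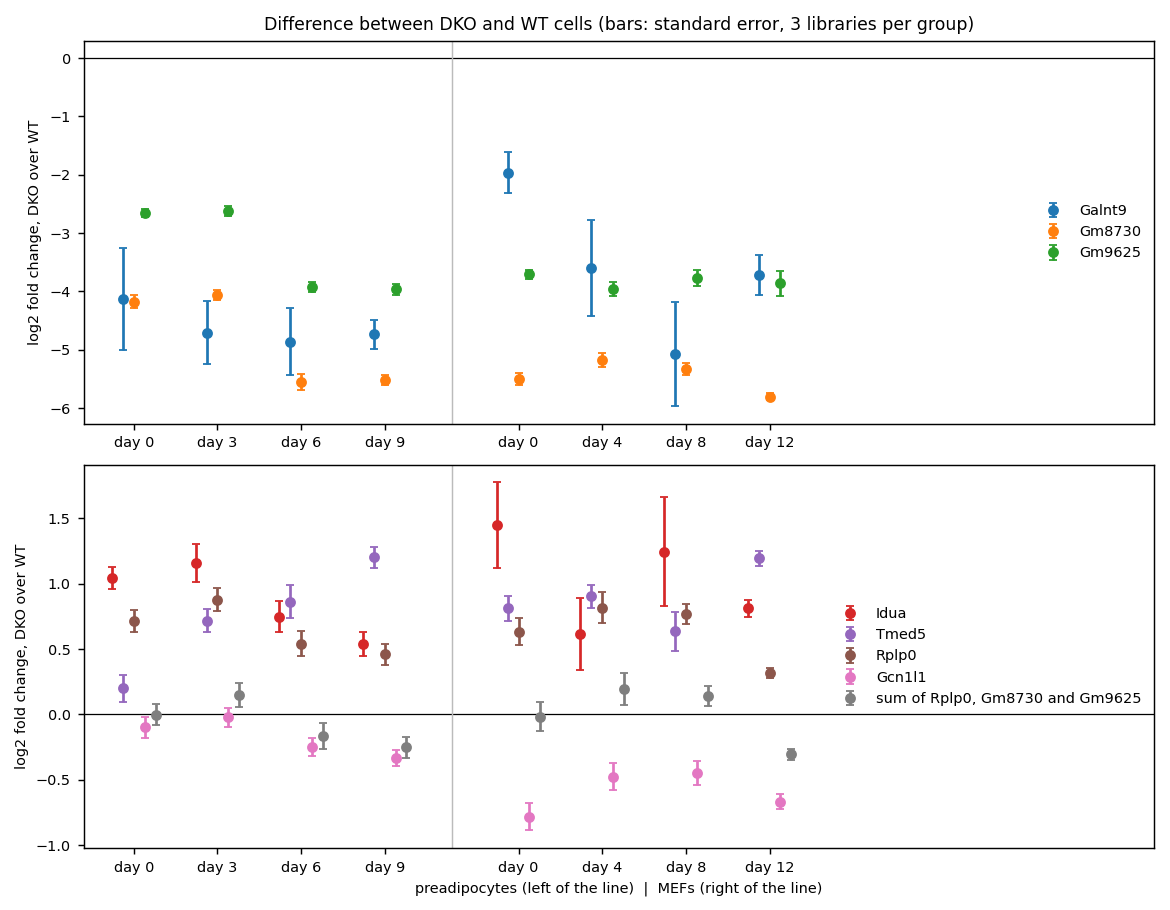
Points give the log2 fold change of DKO over WT cells and bars its standard error, for each cell type and day, with the genes of the largest shifts above and the others below. The sum of Rplp0, Gm8730 and Gm9625 stays between -0.30 and 0.19 while Rplp0 alone lies between 0.32 and 0.88.

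All 7 genes passed the filter on low counts in each of the 8 comparisons. For 6 of them the DKO and WT libraries never overlapped and differed in 1 direction throughout, which held for 48 of the 13059 genes tested in all comparisons (0.368%). Day by day, 6 of the 7 did not overlap on days 0 and 3 of preadipocytes and all 7 on the other days. The share of all tested genes without overlap in preadipocytes was 14.9%, 18.5%, 42.9% and 34.6% on days 0, 3, 6 and 9, of which DKO lay above WT for 7.38%, 10.6%, 24.7% and 22.1% of tested genes and below for 7.52%, 7.9%, 18.3% and 12.5%. In MEFs it was 18.6%, 11.5%, 15.4% and 47% on days 0, 4, 8 and 12, with DKO above for 8.88%, 5.57%, 8.24% and 26.5%. As this is close to what the genes were chosen for, nothing is read from it. Just outside the list, 4 other genes of the window behaved in this way and are named after their values were seen. These were Rpap2 (0.41 to 0.68), Gatc (0.53 to 0.96) and Pebp1 (0.19 to 0.59), higher in DKO cells, and Git2 (-0.56 to -0.20), lower. They were 4 of the 126 other genes of the window tested throughout (3.17%), and 3 of 709 genes did so elsewhere on chromosome 5 and 37 of 12219 on other chromosomes, members included. Of the 48 genes, 11 were processed pseudogenes, 2.14% of the 514 tested, and 32 were protein-coding genes, 0.269% of the 11888 tested. The pseudogenes were mostly lower in DKO cells (9 of 11). Those lower include the listed Gm8730 and Gm9625 and the Rplp0-like loci Gm14165 and Gm6278, so nothing is read from this share either.

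The other 447 annotated genes of the 15 Mb window were then tested in the same fits, since the rule did not use them. By edgeR (quasi-likelihood F test, p adjusted over all genes by the Benjamini-Hochberg method), 16 of 142 tested window genes were called in preadipocytes on day 6 (11.3%, against 11.6% of all genes), 7 higher and 9 lower, and 6 of 140 on day 9 (4.29% against 1.24%). In MEFs on day 12, 14 of 146 were called (9.59% against 7.98%), 8 higher and 6 lower. On day 3 of preadipocytes 2 of 138 were called (1.45% against 0.337%), both higher, namely Fgfrl1, an FGF receptor-like gene named after its value was seen (0.75 ± 0.0727, edgeR adjusted p = 0.0172), and Gatc. On day 0 of preadipocytes 0 of 136 were called (0.218% of all genes), with 37 at an unadjusted p under 0.05 and 4 by DESeq2. On days 0, 4 and 8 of MEFs 0 of 149, 146 and 143 were called (0.102%, 0.0905% and 0.0595% of all genes), with 34, 20 and 22 at an unadjusted p under 0.05 and 6, 2 and 1 by DESeq2. Unadjusted p-values under 0.05 were thus held by 27.2% of window genes against 7.86% of all genes on day 0 of preadipocytes. On days 3, 6 and 9 the shares were 17.4% against 12%, 40.1% against 37.2% and 34.3% against 27.1%. In MEFs they were 22.8% against 9.28% on day 0 and 13.7% against 5.91% on day 4. On days 8 and 12 of MEFs they were 15.4% against 8.57% and 43.2% against 42.3%. The window share was the higher in each of the 8 comparisons, and the shares were closest on day 12 of MEFs. Whether they differ was not tested. Median log2 fold changes of the window genes stayed between -0.048 and 0.038. The window counts changed with single libraries. On day 3 leaving out any 1 of the 6 gave 0 calls, and on day 9 it gave 0 without any WT library and 3, 18 and 2 without DKO replicates 1, 2 and 3. On day 6 it gave 9 without WT or DKO replicate 3, on day 0 of MEFs 13 without DKO replicate 1, and on day 12 of MEFs 9 without WT replicate 1 or DKO replicate 2.

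By edgeR no window gene beyond the members was called in the same direction in 6 or more comparisons. Gatc (115333239 to 115341178, minus strand), which encodes a subunit of the mitochondrial glutamyl-tRNA amidotransferase, came nearest with 4 and is named for that. DESeq2 called Gatc in 7 comparisons, and its DKO libraries lay above WT in all 8. It was at 14.0 CPM in WT and 26.6 CPM in DKO preadipocytes on day 6 (log2 fold change 0.90 ± 0.11, edgeR adjusted p = 0.00389). On day 12 of MEFs it was at 13.6 and 26.9 CPM (0.96 ± 0.0825, edgeR adjusted p = 2.88e-07).

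**Figure D4:**
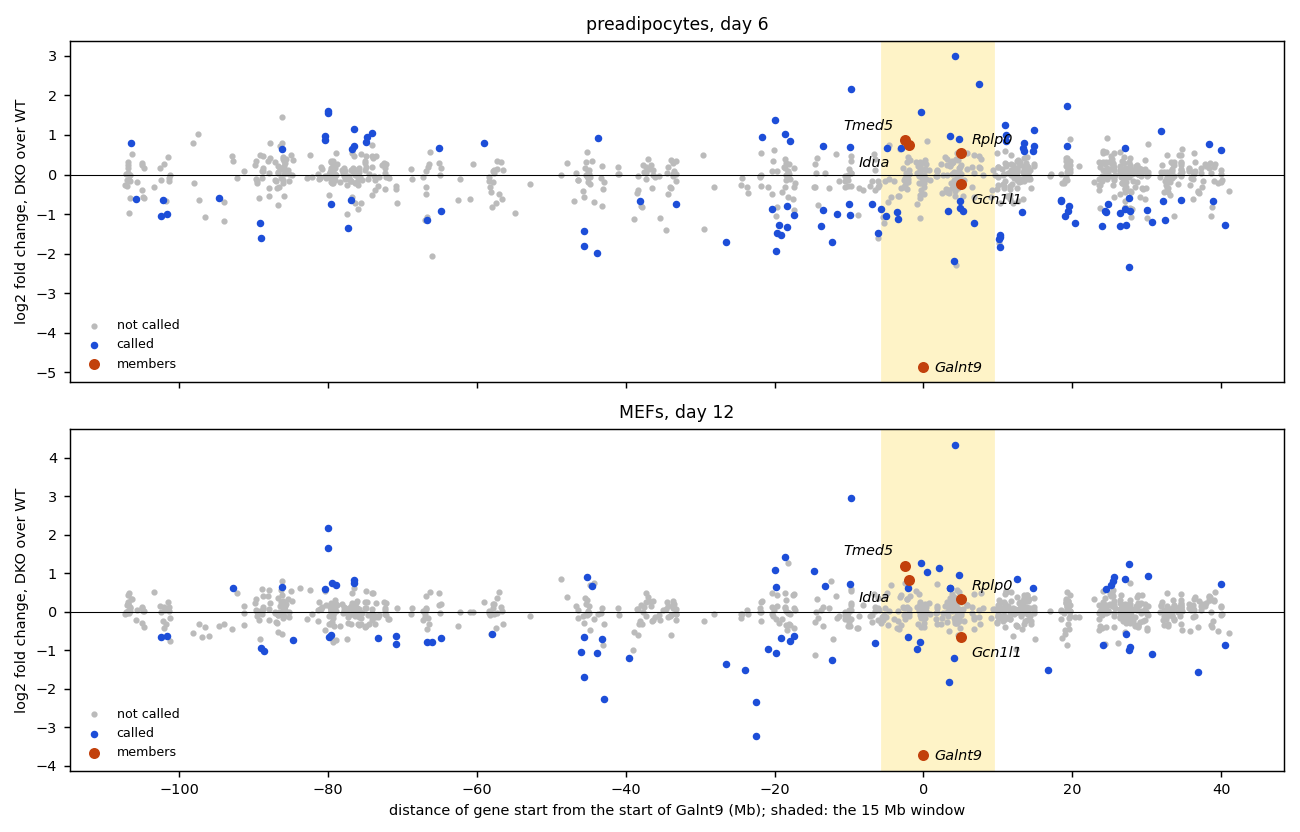
Each point is a tested gene of chromosome 5, placed by the distance of its start from that of Galnt9 (Mb), with its log2 fold change of DKO over WT cells on day 6 of preadipocytes (top) and day 12 of MEFs (bottom). Called genes (blue) lie inside the shaded window (16 of 142 and 14 of 146 tested genes that are no members) and outside it, and among the members (orange) Galnt9 is the lowest point of the chromosome.

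Likeness was measured as the root mean square difference of the 8 log2 fold changes, over the 13058 other genes tested in all comparisons. The gene nearest to Tmed5 was Gatc (0.20), a gene of the same window, followed by Pfkfb1 on the X chromosome (0.34). Nearest to Idua were Coq2 (0.32), on chromosome 5 outside the window, and Adhfe1 (0.34). Rplp0 was nearest to Tmem254b (0.20) and again Coq2 (0.22), and Gcn1l1 to Dhdds (0.18) and Ppm1h (0.18), on chromosomes 4 and 10. The nearest genes lay farther off for the members with large shifts. Galnt9 was nearest to Gm9625 (1.27) and the processed pseudogene Gm21596 (1.38), Gm8730 to Gm21596 (1.36) and Gm9625 (1.60), and Gm9625 to Gm12663 (0.52), also a processed pseudogene, and Gm21596 (0.79).

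Changes between days within a genotype were not used to choose the genes, and were tested in 1 fit over the 24 libraries of each cell type. Neighbouring steps share the libraries of the day between them. From day 0 to day 3, 6 of the 7 genes were called in WT preadipocytes (23.2% of all genes) and 5 in DKO preadipocytes (28.4%). In both genotypes these include Rplp0, Gm8730 and Gm9625, among which RSEM divides reads. Their calls are not separate from each other, here and in the steps below. Rplp0 rose in both, by 0.66 ± 0.0726 in WT (edgeR adjusted p = 1.29e-06) and by 0.82 ± 0.0728 in DKO cells (edgeR adjusted p = 5.79e-08), and Gm8730 and Gm9625 rose with it by 0.69 ± 0.0894 and 0.71 ± 0.0694 in WT and by 0.79 ± 0.0916 and 0.74 ± 0.0720 in DKO cells. Idua fell in both, with log2 changes of -1.06 ± 0.11 in WT (edgeR adjusted p = 5.45e-07) and -0.95 ± 0.10 in DKO cells (edgeR adjusted p = 6.56e-07). Galnt9 rose in WT cells by 1.66 ± 0.50 (edgeR adjusted p = 0.0135), which was no longer called without WT replicate 1 of day 0 (1.35, edgeR adjusted p = 0.0574) or WT replicate 1 of day 3 (1.15, edgeR adjusted p = 0.0883). In DKO cells, where it had few reads, it changed by 1.09 ± 0.71 (edgeR adjusted p = 0.217). Whether the genotypes differ in these changes was not tested, because such a comparison is built from the DKO against WT differences that chose the genes.

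From day 3 to day 6, 5 of the 7 were called in WT (45.3% of all genes) and 5 in DKO preadipocytes (49.7%). Gm8730 fell, with log2 changes of -0.69 ± 0.0894 in WT and -2.14 ± 0.0974 in DKO cells (edgeR adjusted p = 1.89e-06 and 2.58e-12), as did Gm9625 with -0.78 ± 0.0695 and -2.05 ± 0.0777, and Rplp0 with -0.59 ± 0.0726 and -0.88 ± 0.0729. The WT fall of Rplp0 lies at the threshold of a 1.5-fold change and was called in only 7 of 24 refits that leave out 1 library, the log2 change being -0.58 to -0.56 in the others. Galnt9 fell as well, with -2.56 ± 0.52 in WT cells (edgeR adjusted p = 3.13e-04) and -2.68 ± 0.95 in DKO cells (edgeR adjusted p = 0.0157, but 0.0653 without DKO replicate 1 of day 3, 0.0621 without DKO replicate 1 of day 6 and 0.0654 without DKO replicate 3 of day 6). Tmed5 rose by 0.82 ± 0.11 and 1.01 ± 0.11. From day 6 to day 9 none of the 7 was called in WT (13.1% of all genes) or DKO cells (11%) by edgeR or DESeq2. At an unadjusted p under 0.05 there were 6 and 4, and both counts include Rplp0, Gm8730 and Gm9625. No share of all genes at that threshold is given, so nothing is read from these counts. Between days 0 and 9, Tmed5 was called in WT cells (1.09 ± 0.11), 1 of 7 (51.8% of all genes, 25.2% upward), and 4 genes in DKO cells (56.4%), with Tmed5 higher (2.13 ± 0.11) and Idua (-0.63 ± 0.10), Gm8730 (-1.65 ± 0.0974) and Gm9625 (-1.70 ± 0.0791) lower.

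In MEFs, 2 of the 7 were called between days 0 and 4 in WT cells (31.6% of all genes, 14% upward) and 3 in DKO cells (28.3%, 12.3% upward), all of them upward. Tmed5 rose in both, by 1.204 ± 0.11 and 1.301 ± 0.11 (edgeR adjusted p = 1.35e-07 and 7.13e-08). Galnt9 rose in WT MEFs by 1.69 ± 0.58 (edgeR adjusted p = 0.0213, but 0.0693 and 0.07 without WT replicates 1 and 2 of day 0, and 0.214 without WT replicate 1 of day 4), and changed by 0.061 ± 0.73 in DKO MEFs (edgeR adjusted p = 0.953). Between days 4 and 8 none was called in either genotype by edgeR or DESeq2, with 0 at an unadjusted p under 0.05, and 0.406% and 0.341% of all genes were. Between days 8 and 12 the 3 Rplp0-like loci fell in both genotypes, 3 of 7 genes in each (19.6% and 23.9% of all genes, 6.66% and 8.65% downward), Rplp0 with -0.67 ± 0.0757 in WT and -1.12 ± 0.0763 in DKO cells (edgeR adjusted p = 3.20e-06 and 9.71e-09) and Gm8730 with -0.70 ± 0.0779 and -1.17 ± 0.0847. The fall of Gm9625 in DKO cells (-0.74 ± 0.18) was under 1.5-fold without DKO replicate 3 of day 12 (-0.46). Between days 0 and 12, Tmed5 was called in WT MEFs (1.22 ± 0.11), 1 of 7 (24% of all genes, 13.4% upward), and 2 genes in DKO MEFs (28.3%), Tmed5 upward (1.63 ± 0.11) and Idua downward (-0.93 ± 0.34, edgeR adjusted p = 0.033, but 0.284 without DKO replicate 2 of day 0 and 0.0706, 0.0802 and 0.0818 without DKO replicates 1, 2 and 3 of day 12). Gcn1l1 was called between no tested pair of days in either cell type by edgeR or DESeq2, with an unadjusted p under 0.05 in 9 of 16 contrasts. These 16 include the last day against day 0, which is not separate from the steps between neighbouring days. No share of all genes at that threshold is given.

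The other genes of the members' families and pathways were compared between DKO and WT cells in the same fits. Of 19 other GALNT family and core O-glycan enzymes, 13 to 16 were tested. The lowest log2 fold change of any of them in any comparison was -1.77, not called. Galnt9 lay at -1.96 or lower, but it was listed for its shift, so nothing is read from this gap. On day 6 of preadipocytes 2 rose and 2 fell. Galnt15 rose from 10.7 ± 1.86 to 35.4 ± 18.7 CPM (log2 fold change 1.70 ± 0.42, edgeR adjusted p = 0.0394) and was also the only one called in MEFs, on day 12 (0.91). Galnt16 fell from 45.2 ± 11.5 to 23.7 ± 5.47 CPM (log2 fold change -0.98 ± 0.23, edgeR adjusted p = 0.0301). Over the 8 comparisons the list's median log2 fold change lay between -0.19 and 0.085. Over all 5 lists 13 genes were called on day 6, 8 without WT replicate 3 and 6 without DKO replicate 3. On day 6, 11.6% of all genes were called and their median was -0.013.

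Of 16 genes for the lysosomal breakdown of glycosaminoglycans, the pathway of Idua, all were tested in each comparison, and 4 fell on day 6 of preadipocytes while none rose. Hgsnat, the heparan acetyltransferase of the lysosomal membrane, went from 291 ± 66.5 to 128 ± 31.2 CPM (log2 fold change -1.21 ± 0.24, edgeR adjusted p = 0.0165), and Gusb, beta-glucuronidase, from 122 ± 10.5 to 66.3 ± 6.85 CPM (log2 fold change -0.92 ± 0.10, edgeR adjusted p = 0.00264). Hpse, heparanase, fell on days 6 and 9 (-1.02 and -0.84). Its day 9 call was the only one of the 5 lists on that day, and 0 remained with the replicate number as a block, without any 1 of the WT libraries or without DKO replicate 1. None of the 16 genes had a log2 fold change above 0 on day 6 or 9 of preadipocytes (medians -0.41 and -0.40), where Idua was at 0.75 and 0.54. The macrophage or leukocyte markers were lower in DKO cells on day 6, as given above, and on day 9 (1149 to 2323 CPM against 2369 to 5103 CPM), and their part in this was not tested.

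Of 10 other p24 cargo receptors, 8 were tested, and 0 were called in any of the 8 comparisons by edgeR or DESeq2 (9 values with an unadjusted p under 0.05), with medians from -0.074 to 0.10. Of 9 ribosomal stalk and elongation factor genes, likewise 0 were called by either tool (15 values with an unadjusted p under 0.05). Their medians ran from -0.23 to 0.062. Rplp0 alone ran from 0.32 to 0.88, but its sum with Gm8730 and Gm9625, among which RSEM divides reads, ran from -0.30 to 0.19. Of 15 genes of the GCN2 pathway and the integrated stress response, to which Gcn1l1 belongs, 5 rose on day 6 of preadipocytes and 0 fell. Trib3, a stress-induced pseudokinase, went from 17.5 ± 3.10 to 64.8 ± 18.7 CPM (log2 fold change 1.86 ± 0.25, edgeR adjusted p = 0.00638), and Ddit3, the transcription factor CHOP, from 32.8 ± 3.58 to 73.3 ± 14.3 CPM (log2 fold change 1.13 ± 0.15, edgeR adjusted p = 0.0047). Asns, asparagine synthetase, rose by 0.60. No gene of this list was called by edgeR in the other 7 comparisons, in which DESeq2 called 1 in all. Over all 8 comparisons 28 values had an unadjusted p under 0.05, of them 10 on day 12 of MEFs (42.3% of all genes). Of the 15 genes, 15 lay above 0 on day 12 of MEFs, 14 on day 9 of preadipocytes and 13 on day 8 of MEFs. On days 0 and 3 of preadipocytes and day 4 of MEFs 5 did, and on day 0 of MEFs 8.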

How the data were processed

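The authors deposited 2 tables of expected counts per gene, 1 for preadipocytes and 1 for MEFs. The submitters' processing notes name bcl2fastq 2.17, cutadapt 1.18, STAR 2.7.0f, RSEM 1.3.0 and mm10. Whether strand was used in counting is not given in the sources used here. Expected counts were rounded (5.49% to 7.90% per library were not whole) and scaled by TMM. Genes passing filterByExpr were fitted per day, DKO against WT, with glmQLFit and glmQLFTest (edgeR 4.0.16, limma 3.58.1, R 4.3.3), and were called at a Benjamini-Hochberg adjusted p under 0.05 over all genes and at least a 1.5-fold change. Days were compared in 1 fit per cell type. DESeq2 1.42.0 and the other alternatives are given in the closing section. Positions and sequences were taken from GENCODE M21, in which all 55450 identifiers matched. The code was tested on simulated data. No 2 libraries of a group agreed within sampling noise.

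The genes, their lists and the tests were chosen with earlier results of these data known. Named were the 7 genes, the 2 genes nearest to each in likeness, window genes called the same way in at least 6 comparisons, at most 3 genes of each list by number of calls, Hmgn1, Hmgn2 and the Rplp0-like loci, and others only where their choice after the values is stated.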

Additional observations from a re-analysis of the deposited data

Results flagged for a closer look

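The summed level of Rplp0, Gm8730 and Gm9625 moved in opposite directions between comparisons, with every DKO library on 1 side of the WT libraries. DKO libraries lay above WT on day 3 of preadipocytes (log2 fold change 0.15) and on days 4 and 8 of MEFs (0.19 and 0.14), and below WT on day 9 of preadipocytes (-0.25) and on day 12 of MEFs (-0.30). The difference between these comparisons was not tested. Groups of 3 libraries were too small for the search for single outlying libraries.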

How the results depend on the processing

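Of 728 alternative values of the 56 DKO against WT differences, 726 kept their sign, and both changes concern Gcn1l1 on day 3 of preadipocytes. Window calls on days 0, 3, 6 and 9 of preadipocytes were 0, 2, 16 and 6, and on days 0, 4, 8 and 12 of MEFs 0, 0, 0 and 14. DESeq2 gave 4, 8 and 16 on days 0, 3 and 9 and 6, 2 and 1 on days 0, 4 and 8 of MEFs. One fit over all days gave 2, 10 and 13 on days 0, 3 and 9 and 4, 2, 1 and 3 in MEFs. No filter gave 4 and 12 on days 3 and 9 and 1 on day 0 of MEFs, library size alone gave 11 on day 9, and no fold change threshold gave 34 on day 6 and 50 on day 12 of MEFs. List calls were 1 by DESeq2 on day 0 of both cell types and on day 8 of MEFs, and on day 9 of preadipocytes 4 by DESeq2 and 2 with no filter, against 1. The causes were not tested. Leaving out 1 library gave 0 to 1, 0 to 0, 9 to 19 and 0 to 18 window calls in preadipocytes and 0 to 13, 0 to 0, 0 to 0 and 9 to 15 in MEFs. On day 6 it gave 9 without WT or DKO replicate 3. On day 9 it gave 0 without any WT library, 3, 18 and 2 without DKO replicates 1, 2 and 3. On day 0 of MEFs it gave 13 without DKO replicate 1 and 1 without DKO replicate 2, and on day 12 it gave 9 without WT replicate 1 or DKO replicate 2. List calls ran from 6 to 14 on day 6 (8 without WT replicate 3, 6 without DKO replicate 3), from 0 to 11 on day 9 (11 without DKO replicate 2, 0 without any WT library or DKO replicate 1) and from 0 to 3 on day 0 of MEFs (3 without DKO replicate 1). Replicate numbers did not pair the genotypes in a steady way. Same-numbered DKO and WT libraries of a day correlated at -0.84 to 0.80 in MEFs (3 of 12 over 0.1) and -0.30 to 0.66 in preadipocytes (6 of 12). In preadipocytes replicates 1, 2 and 3 gave 0.38, -0.30 and 0.63 on day 0 and 0.53, 0.060 and 0.66 on day 3. With 3 libraries per group such values cannot exclude pairing. Between neighbouring days of a genotype the correlation was over 0.1 for 11 of 18 pairs in preadipocytes and 6 of 18 in MEFs, and for all 3 pairs between days 0 and 3 of DKO and days 6 and 9 of DKO and WT preadipocytes, so that numbers may tie libraries across these days. With the replicate block, window calls were 4 and 2 on days 3 and 9 and list calls 0 on day 9, and no call of the 7 genes between days changed. Depth limits Galnt9, Gm5340 and Gm5948 in DKO libraries.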
